A study of Homo sapiens with 34 samples.

Results

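The regions described here carried acetylated lysine 27 of histone H3 (H3K27ac) in every knockdown library and in no control library of KELLY, an established human neuroblastoma cell line with amplified MYCN. Peaks of the 6 H3K27ac libraries were pooled over chromosomes 1 to 22 and X and intervals sharing 1 bp or more were merged, which gave 100382 regions. Of these, 602 held a peak from 3 of 3 Doxycycline lists and from 0 of 3 DMSO lists, and these are called gained regions. They made up 0.6% of all merged regions. The opposite pattern, called lost, was found in 2715 regions, and 28618 regions were called in all 6 libraries. The members were chosen by their H3K27ac peak calls, so their H3K27ac values are given only as a description, with no test.

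The KELLY cells carried a lentiviral construct with a short hairpin RNA that targets RUNX1T1, a transcriptional corepressor. They were kept for 72 h with Doxycycline, which switches the hairpin on, or with the solvent DMSO. Both groups therefore carried the construct, and the sources used here do not say which hairpin sequence was in these libraries. No library with doxycycline but without the hairpin, and no library with a second hairpin, was analysed here, so an effect of the antibiotic or of this hairpin on other transcripts cannot be told apart from the knockdown. Chromatin was immunoprecipitated for H3K27ac, H3K4me1, H3K4me2, H3K4me3 and H3K27me3 and sequenced (ChIP-seq), with 3 libraries per mark and treatment. The sources used here do not say that the 3 libraries came from separate cultures, so p-values measure only the spread between these libraries.

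H3K27ac marks active enhancers and promoters. H3K4me1 covers enhancers whether active or not, H3K4me2 covers enhancers and promoters, and H3K4me3 marks the start sites of genes. H3K27me3 is laid down by Polycomb complexes at silent developmental genes, and promoters that carry it together with H3K4me3 are called bivalent. In neuroblastoma, enhancer acetylation is known to separate an adrenergic from a mesenchymal cell state, the latter with strong use of AP-1, the JUN and FOS dimers.

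Before calling, ChIP and input reads were scaled to the smaller library. Calls rested on 71.9 to 81.1 M reads (M, 1e06) in DMSO and on 57.0 to 63.4 M in Doxycycline, so that depth and treatment cannot be told apart. All marks of a treatment and replicate number were called against the same input library, and the inputs of replicates 1 and 3 had equal read totals within each treatment, so calls of different marks are not independent of each other in their input. The promoters of 8 of 8 adrenergic markers carried H3K27ac in all 6 libraries, against 1 of 8 mesenchymal markers, 2 of 4 Schwann cell markers, 1 of 4 epithelial markers and 0 of 4 blood markers. Only 1 of the 8 mesenchymal markers had no call in any library. COL1A1 was called in 3 DMSO and 1 Doxycycline libraries, CD44 in 3 and 2, and COL3A1 and YAP1 each in 2 and 0. SNAI2 was called in 1 and 0, and VIM went the other way, in 0 and 1. These differences were not tested. At the RUNX1T1 promoter H3K27ac was called in 3 of 3 libraries of each treatment. A hairpin acts on messenger RNA, so this does not measure the knockdown.

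Sequence is shown for 6 gained regions, to set beside the strength, the other marks and the motifs described afterwards. The windows are the central 300 bases of the region (hg38, plus strand). SHANK2 and BABAM2 name the highest ranking regions by H3K27ac, HNRNPLL and RGS8 regions that also gained H3K4me2, OSBP a region that also gained H3K4me1, and NPW a bivalent promoter. BABAM2 gained H3K4me2 as well. Each region is named after the protein-coding gene with the nearest start site. Capitals mark the AP-1 motif TGANTCA, the GATA motif AGATAA and the E-box CANNTG, searched on both strands.

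SHANK2 (chr11:70670072-70670371): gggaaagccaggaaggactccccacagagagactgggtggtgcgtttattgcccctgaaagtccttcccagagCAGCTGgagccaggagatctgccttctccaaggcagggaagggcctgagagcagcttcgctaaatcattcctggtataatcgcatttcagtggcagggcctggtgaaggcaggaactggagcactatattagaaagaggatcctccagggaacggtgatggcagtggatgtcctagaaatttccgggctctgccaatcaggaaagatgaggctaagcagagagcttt

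BABAM2 (chr2:27871425-27871724): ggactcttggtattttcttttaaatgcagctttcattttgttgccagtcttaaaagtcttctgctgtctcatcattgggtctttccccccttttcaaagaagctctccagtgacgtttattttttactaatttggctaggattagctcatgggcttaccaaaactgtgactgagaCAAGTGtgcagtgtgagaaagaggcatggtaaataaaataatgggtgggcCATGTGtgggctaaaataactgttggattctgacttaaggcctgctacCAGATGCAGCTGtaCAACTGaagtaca

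HNRNPLL (chr2:38542798-38543097): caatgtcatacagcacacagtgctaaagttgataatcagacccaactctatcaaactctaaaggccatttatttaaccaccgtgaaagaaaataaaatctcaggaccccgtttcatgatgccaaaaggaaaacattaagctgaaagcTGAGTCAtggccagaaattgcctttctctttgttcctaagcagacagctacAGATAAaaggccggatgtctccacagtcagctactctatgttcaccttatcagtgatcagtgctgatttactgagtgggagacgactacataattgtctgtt

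OSBP (chr11:59582320-59582619): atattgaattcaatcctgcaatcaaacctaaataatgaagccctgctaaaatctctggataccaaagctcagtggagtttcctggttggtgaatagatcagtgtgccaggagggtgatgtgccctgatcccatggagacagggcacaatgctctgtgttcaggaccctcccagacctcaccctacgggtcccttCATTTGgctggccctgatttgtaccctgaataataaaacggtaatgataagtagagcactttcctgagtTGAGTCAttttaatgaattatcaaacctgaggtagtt

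RGS8 (chr1:182684878-182685177): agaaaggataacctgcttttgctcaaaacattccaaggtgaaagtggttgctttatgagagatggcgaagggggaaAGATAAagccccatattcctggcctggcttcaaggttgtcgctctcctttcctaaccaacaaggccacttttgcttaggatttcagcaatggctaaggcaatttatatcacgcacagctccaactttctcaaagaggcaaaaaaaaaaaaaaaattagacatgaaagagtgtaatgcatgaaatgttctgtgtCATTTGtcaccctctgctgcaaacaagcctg

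NPW (chr16:2019989-2020288): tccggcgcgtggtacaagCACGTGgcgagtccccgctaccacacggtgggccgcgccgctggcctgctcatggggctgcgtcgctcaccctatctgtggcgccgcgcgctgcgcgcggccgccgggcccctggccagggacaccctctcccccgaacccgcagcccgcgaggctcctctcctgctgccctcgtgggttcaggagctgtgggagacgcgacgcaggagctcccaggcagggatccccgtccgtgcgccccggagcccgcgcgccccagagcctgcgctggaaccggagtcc

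The AP-1 motif stood once in the HNRNPLL window and once in the OSBP window, and the GATA motif once in the HNRNPLL and once in the RGS8 window. The BABAM2 window held 5 E-boxes, and the single E-box of the NPW window was of the CACGTG form bound by MYC and MAX. The NPW window had a GC content of 75.3%, against 41.3% for BABAM2 and 41.0% for HNRNPLL.

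Most gained regions were weak H3K27ac peaks. Their median −log10 q-value, the significance given by the peak caller, was 2.91, 2.13 and 2.07 in Doxycycline libraries 1, 2 and 3. The median fold enrichment of ChIP signal over the local input was 2.59, 2.42 and 2.47. Ranked within its own list, the median member stood at percentile 39.5, 27.6 and 29.5. All 3 −log10 q-values reached 3 in 64 members (10.6%), and all 3 fold enrichments reached 3 in 24.

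The strongest member lay across an exon of SHANK2, a scaffold protein of the postsynaptic density (chr11:70668972-70671471). Its H3K27ac fold enrichment was 5.50, 5.51 and 3.29 in Doxycycline libraries 1, 2 and 3, with −log10 q-values of 26.4, 20.4 and 8.28. It was followed by a region 16.6 kb from the start site of BABAM2, a subunit of a BRCA1 complex (chr2:27869824-27873324). That region overlapped MRPL33 and exons of RBKS, which encodes ribokinase, and had fold enrichments of 4.45, 4.21 and 3.68. Next stood an intronic region of DOK5, an adaptor of receptor tyrosine kinases (chr20:54584603-54586876), with 4.50, 4.06 and 3.21. The region nearest to THY1, a cell surface glycoprotein of neurons and mesenchymal cells (chr11:119432232-119435986), overlapped an exon of the antisense gene USP2-AS1 and had 5.20, 4.76 and 3.55.

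An exonic region of FHOD3, a formin that organises actin (chr18:36680479-36682810), reached 6.32 in library 1 and 3.83 and 3.65 in libraries 2 and 3. The remaining members of the top 8 were the promoter of NPW, the precursor of neuropeptide W, an intergenic region 170 kb from SARAF, a regulator of calcium entry, and a region 477 kb from ADAMTS16, a secreted metalloprotease, that lay in an intron of the unnamed gene ENSG00000248973. Their lowest fold enrichments over the 3 libraries were 3.39, 3.42 and 3.56. In 8 of these 8 regions library 1 gave the highest −log10 q-value, and in SHANK2 library 3 was well below the others.

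At the other end, the last 3 members were intronic regions of MED27, a Mediator subunit, ATIC, an enzyme of purine synthesis, and PITPNM3. Their −log10 q-values lay between 1.18 and 1.62, just past the caller's limit. Just outside the rule were 1069 regions with 3 of 3 Doxycycline and 1 of 3 DMSO calls. Those with the weakest DMSO peak lay near EML4, NAA15 and TENM4, at a DMSO −log10 q of 1.03, 1.05 and 1.06. The single DMSO call came from DMSO library 1, which had the longest H3K27ac list (71603 peaks), in 756 of the 1069 regions, from library 2 in 190 and from library 3 in the rest. A further 2065 regions had calls from 2 of 3 Doxycycline and 0 of 3 DMSO lists.

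Most gained regions lay in introns or over exons, as did most merged regions. Of the 602, 291 (48.3%) lay in introns, 117 (19.4%) overlapped an exon, 128 (21.3%) were intergenic and 66 (11.0%, exact 95% binomial interval 8.58 to 13.7%, covering counting of regions only) lay at promoters, within 1 kb of a protein-coding start site. Over all merged regions introns held 43.3%, exons 15.2% and intergenic space 21.2%. Promoters made up 20.3% of all merged regions, 46.6% of those called in all 6 libraries and 5.52% of lost regions. The median distance to a start site was 20.4 kb, against 45.4 kb for lost, 3.11 kb for regions called in all 6 and 15.1 kb for all merged regions.

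**Figure D1:**
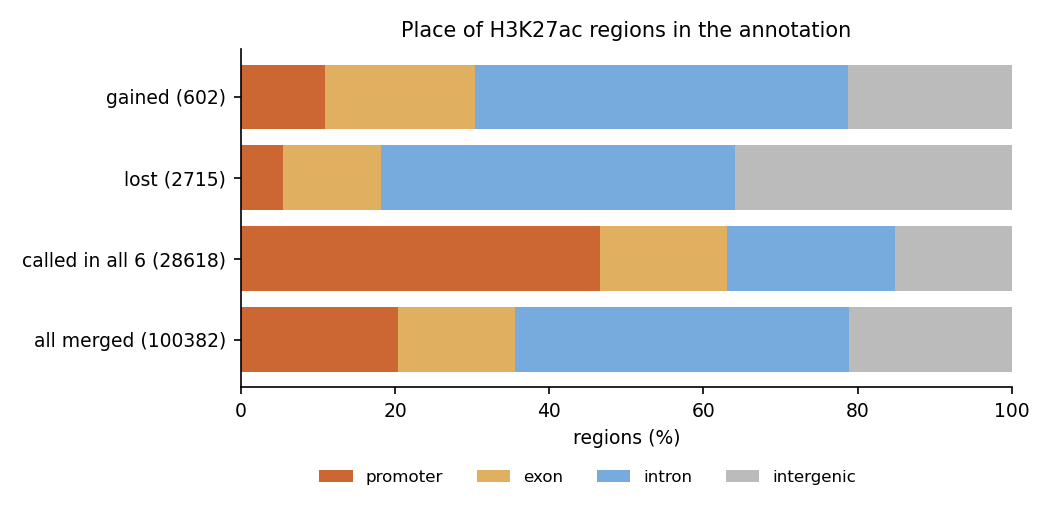
Share of H3K27ac regions (%, horizontal axis) at promoters, over exons, in introns and between genes, for gained, lost, constantly called and all merged regions. The gained bar has 11.0% promoter and 48.3% intron, between the lost regions (5.52% promoter) and those called in all 6 libraries (46.6%).

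Their median width was 1543 bp, compared with 1433 bp for lost regions, 3265 bp for those called in all 6 libraries and 1157 bp for all merged regions. The nearest DMSO H3K27ac peak lay at a median distance of 4.40 kb. It was within 1 kb for 52 members (8.64%) and within 5 kb for 323 (53.7%), while 35 were over 50 kb from it. Another gained region lay within 5 kb of 25 members and within 100 kb of 132 (21.9%). These distances were not measured for other sets of regions, so they only describe the members.

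The remaining 4 marks were not used by the rule, although they shared the input libraries. Across the gained regions, peaks of H3K4me1 were called more often in Doxycycline, and the same held for H3K4me2. H3K4me1 was present at 74.1%, 57.1% and 61.5% of the 602 regions in DMSO libraries 1, 2 and 3, and at 82.9%, 73.9% and 75.1% in the Doxycycline libraries. The means were 64.2 ± 8.80% and 77.3 ± 4.88% (SD, n = 3 each), a difference of 13.1 points. Every Doxycycline library was above its same-numbered DMSO library, with an SD of 4.02 points for the 3 paired differences, but the lowest Doxycycline value fell just below the highest DMSO value. Over all merged regions the share went the other way, from 65.3% to 59.4%.

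H3K4me2 was present at 28.6%, 12.1% and 9.63% of gained regions in DMSO and at 45.0%, 22.9% and 26.7% in Doxycycline. The means were 16.8 ± 10.3% and 31.6 ± 11.8% (SD, n = 3 each). The difference of 14.8 points exceeded both SDs, it was positive in 3 of 3 pairs (SD of the paired differences 3.47), and the ranges overlapped because library 1 was high in both treatments. Without DMSO library 1 the difference was 20.7 points and without Doxycycline library 1 it was 8.06. Over all merged regions the means were 35.4% and 33.8%. In the neighbouring regions with 3 Doxycycline calls and 1 DMSO call the H3K4me1 difference was 3.31 points and the H3K4me2 difference 9.92, and in those with 2 Doxycycline calls and no DMSO call they were 5.33 and 5.57. These were not tested against the gained set. With H3K27ac peaks limited to a −log10 q of 3 or more, 341 regions met the rule and the H3K4me1 difference was 5.08 points. This limit also removed weaker DMSO peaks. Of the 602 members only 64 reached it in all 3 Doxycycline lists, so most of the 341 were other regions.

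**Figure D2:**
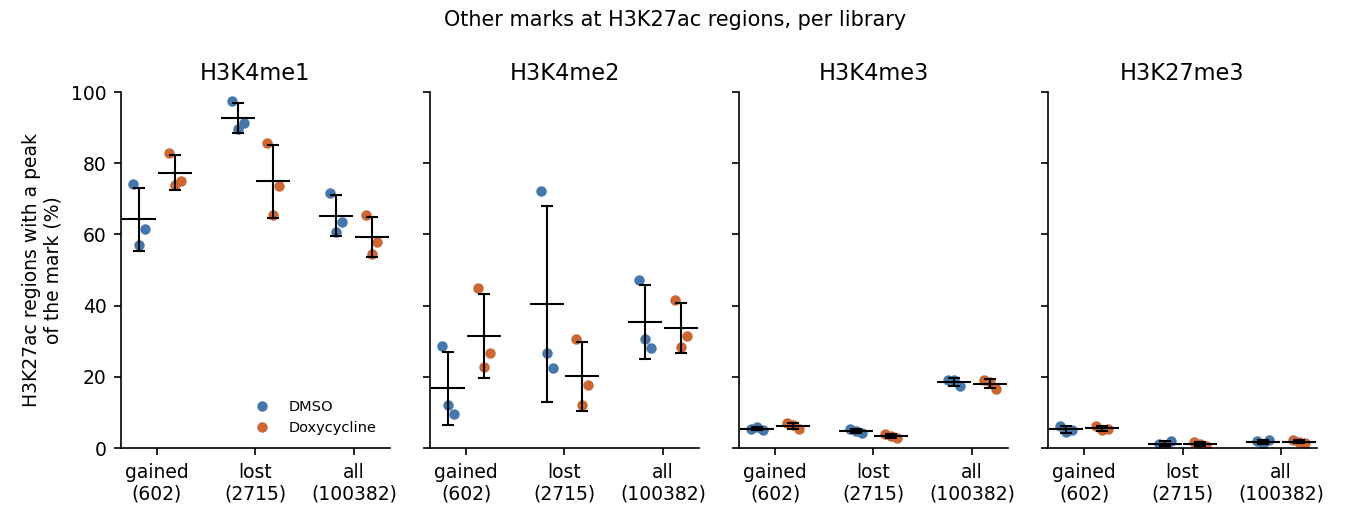
Share of gained, lost and all merged H3K27ac regions (%) with a peak of each of the other 4 marks. Points are single libraries and black bars the mean with SD of 3 libraries. H3K4me1 and H3K4me2 at gained regions are higher in Doxycycline (means 77.3% and 31.6%) than in DMSO (64.2% and 16.8%), while both are lower in Doxycycline at lost regions.

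Over all merged regions the number with each mark was tested between treatments, since no member rule enters there. The difference of mean log2 number, Doxycycline minus DMSO, was -0.14 for H3K4me1 (exact two-sided permutation p = 0.3), -0.047 for H3K4me2 (exact p = 0.9), -0.037 for H3K4me3 (exact p = 0.5) and 0.048 for H3K27me3 (exact p = 0.9), with a Benjamini-Hochberg adjusted p of 0.9 for each of the 4 marks. With 3 libraries against 3 the smallest p is 0.1, so no mark could pass 0.05.

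Counted by region, 180 gained regions had H3K4me1 in more Doxycycline than DMSO libraries and 29 in fewer, whereas among all merged regions 7131 had more and 18914 fewer. For H3K4me2, 208 gained regions had more and 20 fewer (9085 and 12746 of all). H3K4me1 was called in all 6 libraries at 287 members (47.7%, against 46.0% of all merged regions) and in none at 78 (13.0%, against 23.1%). Regions with H3K4me1 in 3 of 3 libraries and neither H3K4me3 nor H3K27me3 in any, the mark pattern of an enhancer without Polycomb, numbered 249 (41.4%) in DMSO and 361 in Doxycycline. Over all merged regions that share was 36.7% in DMSO and 32.7% in Doxycycline. Members without any of the 4 marks numbered 129 (21.4%) in DMSO and 90 (15.0%) in Doxycycline. Over all merged regions that share was 24.0% in DMSO, close to that of members, and 30.2% in Doxycycline.

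Some members gained another mark by the same strict rule, with 3 of 3 Doxycycline and 0 of 3 DMSO lists. H3K4me1 did so at 19 members (3.16%), against 0.18% of all merged regions. H3K4me2 did so at 14 (2.33%), against 0.0687%. H3K4me3 did so at 1, against 0.0458%, and H3K27me3 at 0, against 0.0279%. The neighbouring sets were also above all merged regions for H3K4me1 and H3K4me2. With 3 Doxycycline H3K27ac calls and 1 DMSO call the shares were 0.748% and 0.655%. With 2 Doxycycline calls and no DMSO call they were 1.07% and 0.291%. In the opposite direction, 0 members lost any of the 4 marks, where the shares of all merged regions were 1.2% for H3K4me1, 0.211% for H3K4me2, 0.125% for H3K4me3 and 0.00498% for H3K27me3. The last 2 shares each correspond to fewer than 1 of 602 regions, so those 0 counts carry no information. The H3K4me2 share corresponds to little more than 1, so its 0 says little. The 0 members that gained H3K27me3 also stand against fewer than 1 region. In all 34 members gained H3K4me1, H3K4me2 or H3K4me3, and 0 gained more than 1 of them.

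Gain of H3K4me2 was seen at the BABAM2 region, where its fold enrichment in Doxycycline was 7.68, 3.68 and 4.76 on H3K4me1 that was already called in all 3 DMSO libraries (2.31, 2.56 and 2.12). An intergenic region near MMP20, an enamel metalloprotease (chr11:102573181-102574747), lay 120 kb from the nearest DMSO H3K27ac peak. There H3K4me2 was called at 7.83, 4.05 and 4.22 in Doxycycline only, and H3K4me1 was 2.57, 2.36 and 2.11 in DMSO and 4.56, 2.68 and 2.80 in Doxycycline. The region near HNRNPLL, a regulator of splicing (chr2:38542153-38543742), had H3K4me2 of 3.8, 3.37 and 4.2 in Doxycycline. At the promoter of RGS8, which dampens G-protein signalling (chr1:182684018-182686036), H3K4me2 reached 8.54, 4.13 and 4.43 in Doxycycline, with no H3K4me3 peak in any library. H3K4me1 there was 2.95, 2.08 and 2.41 in DMSO and 4.17, 3.67 and 3.09 in Doxycycline, so its ranges did not overlap.

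Gain of H3K4me1 itself was seen in an intron of PTPRN2, a membrane protein of dense core vesicles (chr7:158186324-158189165), at 3.19, 2.93 and 2.48. It was also seen over exons of OSBP, the oxysterol-binding protein (chr11:59581146-59583793), at 3.29, 2.74 and 2.49, and over a coding exon of RNF150 (chr4:140924881-140926123), at 2.51, 2.33 and 2.47. A short intronic region of IGLON5, a neuronal adhesion protein, had 4.21, 4.08 and 3.01. The single gain of H3K4me3 was in an intron of NTSR1, the neurotensin receptor, and this region was named after its values were seen.

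Where H3K4me1 was called in all 6 libraries, its enrichment also differed between treatments. Over these 287 members the median fold enrichment was 2.83, 2.40 and 2.29 in DMSO libraries 1, 2 and 3 and 3.50, 2.92 and 2.80 in Doxycycline. All 3 Doxycycline values lay above all 3 DMSO values at 85 members (29.6%), against 6.21% of the 46204 merged regions with H3K4me1 in all 6 libraries. The reverse was found at 0 members, against 0.874%. The median log2 difference was 0.28 (quartiles 0.16 and 0.38), compared with 0.097 for all such regions and -0.024 for lost regions. The share with higher values was 18.2% of 570 regions with 3 Doxycycline calls and 1 DMSO call and 18.1% of 530 with 2 Doxycycline calls and no DMSO call, so higher H3K4me1 was not limited to the gained set. Without replicate number 1 the share was 68.3% of members and 37.9% of all such regions, without number 2 it was 44.6% and 13.9%, and without number 3 it was 47.4% and 16.7%.

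Because fold enrichment divides by the input, the pileup (fragment coverage) per M reads was examined as well. By that measure 78 of the 287 members (27.2%) had all Doxycycline values above all DMSO values, against 5.65% of all such regions, and 0 had the reverse, against 0.467%. The last share corresponds to little more than 1 of 287 regions, so that 0 says little. H3K4me2 was called in all 6 libraries at 48 members, and its fold enrichment was higher without overlap at 9 of them (18.8%), against 5.33% of the 23038 such regions, and lower at 0, against 0.13%. The last share corresponds to fewer than 1 of 48 regions, so that 0 carries no information. By pileup the H3K4me2 count was 4 of 48 (8.33%), against 0.742% of all such regions.

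**Figure D3:**
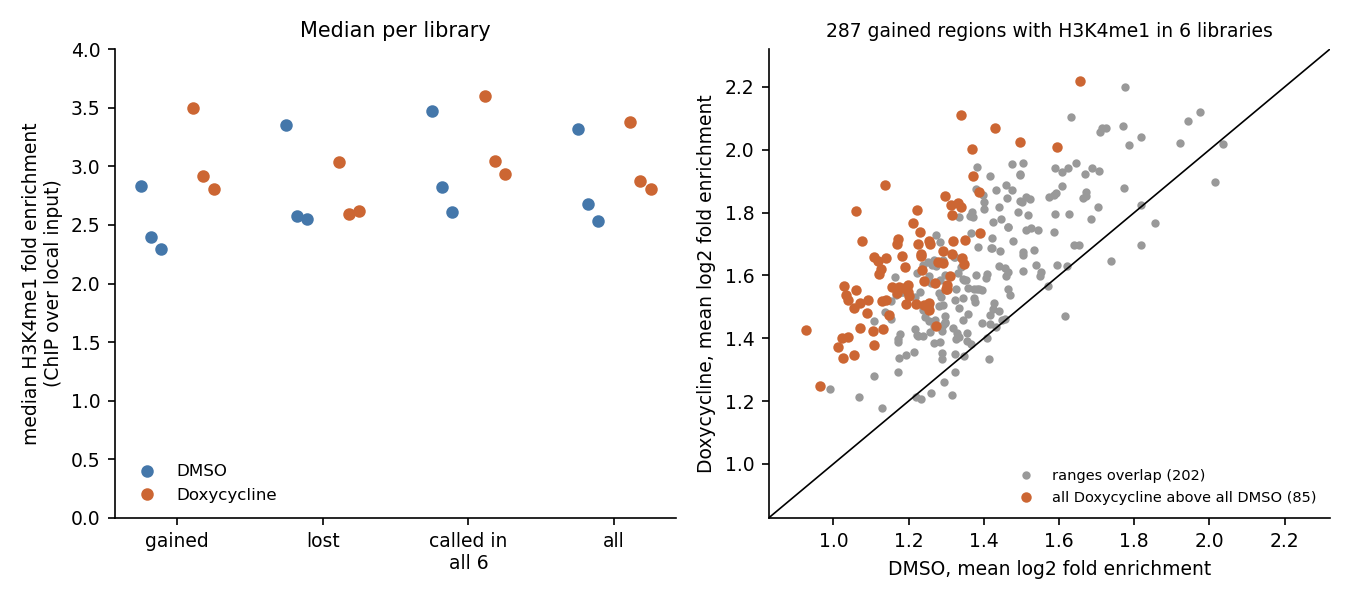
Left, median H3K4me1 fold enrichment (ChIP over local input) per library, for gained, lost, constantly called and all merged regions with an H3K4me1 peak in all 6 libraries. Right, mean log2 fold enrichment of the 287 such gained regions in DMSO (horizontal) and Doxycycline (vertical), with equal values on the line, where the 85 regions whose 3 Doxycycline values exceed all 3 DMSO values are coloured.

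The H3K27ac lists also chose the members, so a split by H3K27ac rank is given as a description, with no test. Among the 201 members with the highest H3K27ac percentile, H3K4me1 was called on average at 80.3% in DMSO and 94.5% in Doxycycline, and H3K4me2 at 28.7% and 52.9%. Among the 200 with the lowest, H3K4me1 was called at 50.7% and 61.7% and H3K4me2 at 7.17% and 15.0%. No H3K4me1 peak was called in any library at 3 of the former and 49 of the latter.

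H3K4me3 and H3K27me3 peaks were present at few gained regions in either treatment. H3K4me3 was called at 5.48%, 5.81% and 4.98% in DMSO and at 6.98%, 6.64% and 5.32% in Doxycycline (means 5.43 ± 0.418% and 6.31 ± 0.879%, SD, n = 3). H3K27me3 was present at 6.31%, 4.49% and 4.98% in DMSO and at 6.31%, 4.98% and 5.32% in Doxycycline (means 5.26 ± 0.945% and 5.54 ± 0.692%, SD, n = 3). The H3K4me3 difference of 0.886 points was just above the larger SD and was positive in 3 of 3 pairs (SD of the paired differences 0.583), while over all merged regions the share was lower in Doxycycline in 3 of 3 pairs (means 18.6% and 18.1%). Without Doxycycline library 1 the H3K4me3 difference was 0.554 points and without Doxycycline library 3 it was 1.38. The H3K27me3 difference of 0.277 points was smaller than either SD and positive in 2 of 3 pairs. At gained regions the ranges overlapped for both marks. Over all merged regions the H3K27me3 means were lower than at gained regions, 1.82% in DMSO and 1.85% in Doxycycline. At lost regions they were 1.24% and 1.18%. With 3 Doxycycline calls and 1 DMSO call they were 2.84% and 2.71%, and with 2 Doxycycline calls and no DMSO call 2.66% and 2.86%. The estimated fragment length of H3K27me3 was 105 to 112 bp in DMSO libraries 2 and 3 and Doxycycline library 3 and 256 to 280 bp in the others, and its part in these values was not tested.

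A small group of members kept H3K27me3 while H3K27ac was called only in Doxycycline. H3K27me3 was called in all 6 libraries at 18 gained regions (2.99%), against 0.643% of all merged regions, and 0 members had it in 3 of 3 DMSO and 0 of 3 Doxycycline libraries. The latter pattern was found at 0.00498% of all merged regions, fewer than 1 of 602, so that 0 carries no information. Of these 18, 16 also had H3K4me3 in all 6 libraries and 13 lay at promoters. The same counts were not taken for other regions with H3K27me3 in all 6 libraries. The median GC content of the 18 was 71.5%, against 46.0% for members without H3K27me3. With peak calls on a population of cells, marks on the same nucleosomes and marks in different cells cannot be told apart.

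NPW (promoter chr16:2019356-2020921) was the strongest of them. Its H3K27me3 fold enrichment was 3.69, 3.66 and 2.66 in DMSO and 3.35, 3.24 and 3.19 in Doxycycline, which overlapped. Its H3K4me3 fold enrichment was 10.3, 11.4 and 7.00 in DMSO and 27.6, 24.6 and 17.0 in Doxycycline, without overlap. LHX4, a LIM homeobox factor of pituitary and motor neuron development (promoter chr1:180229271-180230419), had H3K27me3 of 5.45, 4.46 and 3.10 in DMSO and 4.54, 3.77 and 3.10 in Doxycycline. An intronic region of RBFOX3, the neuronal splicing factor known as NeuN (chr17:79161446-79163183), had 5.52, 4.06 and 3.08 in DMSO and 5.27, 4.81 and 3.47 in Doxycycline. RBFOX3 had no H3K4me3 peak in DMSO and a peak in 2 of 3 Doxycycline libraries.

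Among the 66 promoter members, 19 had H3K4me3 in all 6 libraries and 46 in none. The same counts were not taken for promoters outside the gained set, so they only describe the members. Promoters with H3K4me3 in all 6 libraries included ISG15, an interferon-induced ubiquitin-like protein (chr1:1000236-1001943). Its H3K4me3 was 7.13, 7.21 and 6.15 in DMSO and 20.2, 20.5 and 11.4 in Doxycycline, so the ranges did not overlap. H3K27me3 was also called in all 6 libraries at ISG15. It was 5.09, 4.28 and 3.60 in DMSO and 5.03, 4.46 and 3.64 in Doxycycline, which overlapped. The promoters of RIMBP3B and TMEM271 likewise carried H3K4me3 and H3K27me3 in all 6 libraries. H3K4me3 was 26.5, 22.3 and 18.3 in DMSO and 24.5, 19.9 and 19.9 in Doxycycline at RIMBP3B, which overlapped, and 10.3, 10.9 and 10.4 against 18.0, 15.0 and 11.7 at TMEM271, which did not. At LHX4 it was 28.0, 33.7 and 17.5 against 40.4, 35.1 and 30.4, with overlap. Of the 29 members with H3K4me3 in all 6 libraries, 4 (13.8%) had all Doxycycline values above all DMSO values, against 2% of the 16035 such merged regions, and 0 had the reverse, against 0.967%. The 4 were NPW, TMEM271, ISG15 and an intergenic region near DLL4, a Notch ligand gene, the last named after its values were seen. The share of 0.967% corresponds to fewer than 1 of 29 regions, so the 0 beside it carries no information. The median log2 difference was 0.48, against 0.045 for all such regions. Among regions with 2 Doxycycline calls and no DMSO call, the share with higher H3K4me3 was 15.3% of 59. The promoter of MSX1, a homeobox factor of neural crest, had H3K4me3 in 6 libraries, with overlapping ranges (22.1, 19.1 and 14.6 in DMSO, 38.0, 26.2 and 19.2 in Doxycycline), and H3K27me3 in every DMSO but 1 Doxycycline library (fold enrichment 4.74, 3.56 and 3.46 in DMSO and 3.58 in Doxycycline library 1). Promoter windows without H3K4me3 in any library included those of BCL2, the inhibitor of apoptosis (chr18:63161316-63163091), and NAV2, a neuron navigator protein (chr11:19810119-19812767). At both, H3K4me1 was called in all 6 libraries.

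The central 300 bases of each region were searched for 7 motifs. The AP-1 motif TGANTCA was found in 110 gained regions (18.3%, exact 95% binomial interval 15.3 to 21.6%, covering counting of regions only). It was found in 9.69% of lost regions, 7.67% of those called in all 6 libraries and 9.51% of all merged regions. Without single H3K27ac libraries the gained share lay between 13.6 and 18.7%, so part of that range fell below the interval. Away from promoters the shares were 19.0% of 536 gained, 9.90% of lost and 10.4% of all regions. With 3 Doxycycline calls and 1 DMSO call the AP-1 share was 12.1%, and with 2 Doxycycline calls and no DMSO call 12.0%. The GATA motif AGATAA was found in 17.9% of gained regions, close to the 17.6% of all merged regions, and in 29.9% of lost regions.

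The RUNX motif TGTGGT was found in 21.4% of gained and 18.0% of all merged regions. The E-box CANNTG was found in 83.9% and 78.5%, its CATCTG form in 25.1% and 21.8%, and its CACGTG form in 4.15% and 4.47%. The last 2 forms are contained in the general E-box. The CATCTG form was found in 26.1% of lost regions, so its share was not particular to gained regions. In regions with 3 Doxycycline calls and 1 DMSO call it was found in 25.3%, and with 2 Doxycycline calls and no DMSO call in 24.9%. The RUNX motif was found in 19.9% and 19.8% of these 2 sets and in 18.0% of lost regions. The PHOX2 core TAATNNAAT was found in 10.1% of gained and 6.47% of all merged regions. It was found in 8.07% of lost regions and 4.78% of those called in all 6 libraries. With 3 Doxycycline calls and 1 DMSO call its share was 8.33%, and with 2 Doxycycline calls and no DMSO call 7.07%. The sets differ in base composition, with a median GC content of 47.0% for gained, 44% for lost, 53.7% for constantly called and 48.3% for all merged regions. A match is a description of letters in the window and not a measured binding site.

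**Figure D4:**
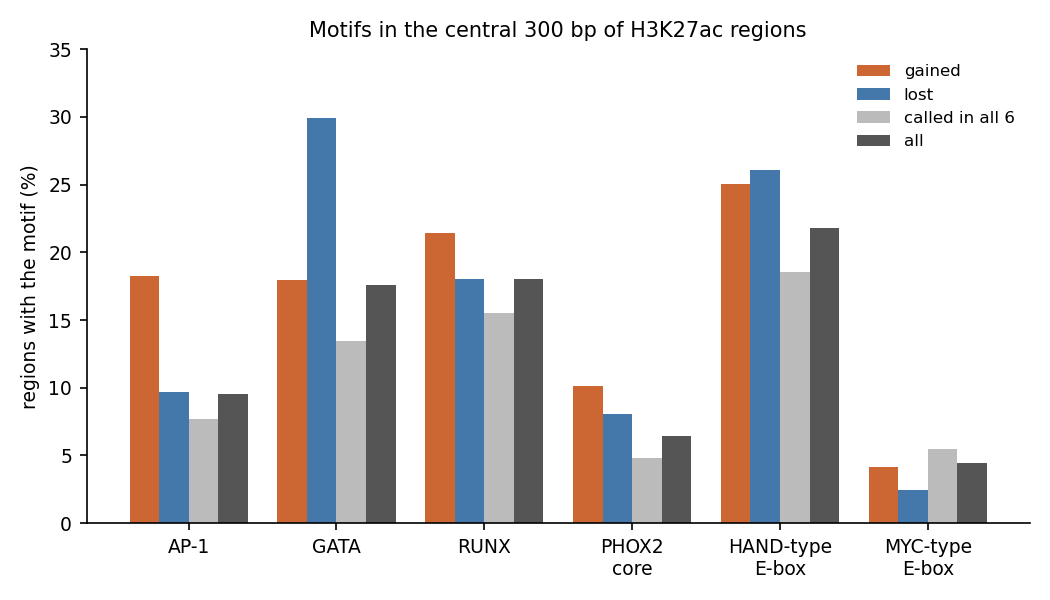
Share of H3K27ac regions (%, vertical axis) with each of 6 motifs in the central 300 bp (the general E-box is not drawn), for gained, lost, constantly called and all merged regions. AP-1 is found in 18.3% of gained and 9.69% of lost regions, GATA in 17.9% and 29.9%.

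Within the gained set, the 110 members with an AP-1 motif lay at a median of 8.16 kb from the nearest DMSO H3K27ac peak and the other 492 at 4.01 kb. H3K4me1 was called in more Doxycycline than DMSO libraries at 47 of the former and 133 of the latter, and in no library at 6 (5.45%) and 72 (14.6%). The motif was present in 51 (25.4%) of the 201 strongest members, 28 (14.0%) of the 200 weakest, 13 of the 34 that gained another active mark and 0 of the 18 with H3K27me3 in all 6 libraries. The median GC content of members with the motif was 44.7%, against 47.3% for the others.

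By nearest start site within 100 kb, 484 gained regions were assigned to 424 protein-coding genes, 2.12% of the 19962 annotated. Assignment by distance does not show which gene a region acts on. Lost regions were assigned to 1388 genes, and 58 genes were near both kinds. The median length of genes near gained regions was 102 kb, near lost regions 100 kb and of all protein-coding genes 27.5 kb, and longer genes have more room for a region.

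A single gained region was assigned to 376 genes, and 10 genes had 3 or 4. The 2 genes with 4 were TNS3, a tensin of focal adhesions, and SDK2, an adhesion protein that guides synaptic lamination. The SDK2 regions spanned H3K27ac percentiles from 20.8 to 38.0, and in the strongest of them H3K4me2 was 2.24 in DMSO library 1 alone and 10.3, 4.73 and 3.78 in Doxycycline. The fourth of them, across a coding exon (chr17:73455262-73456078), gained H3K4me2 at 6.56, 3.76 and 2.99. Of the TNS3 regions, that at chr7:47457718-47459033 gained H3K4me1 at 5.03, 4.42 and 1.99, and all 4 lay within 5.12 kb of a DMSO H3K27ac peak.

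Genes with 3 gained regions included ASAP1, which acts on ARF GTPases, BCL2, the chromatin remodeller CHD7, the chondroitin sulphotransferase CHST11, the ubiquitin ligase adaptor DCAF5 and the splicing factor MBNL2. The CHD7 region at chr8:60799942-60802410 and the MBNL2 region at chr13:97346673-97348214 each gained H3K4me1 (2.53, 2.43 and 2.31 for CHD7, 3.13, 2.72 and 2.37 for MBNL2). None of the 3 DCAF5 regions had a peak of H3K4me2, H3K4me3 or H3K27me3, and 2 had no H3K4me1 peak.

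Among 14 gene lists, genes of neuronal structure and synapse were near gained regions most often after the short list of adrenergic factors, at 7 of 60 (11.7%), against 2.12% of all genes. They were CPLX2, DLG2, DLG4, MAP1B, NCAM1, RBFOX3 and SHANK2. The same list had 14 of 60 (23.3%) near lost regions, against 6.95% of all genes, and its median gene length was 100 kb. The DLG2 region within that distance (chr11:83968662-83971476), in an intron of this postsynaptic scaffold gene, had H3K27ac of 3.43, 3.00 and 2.68.

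Voltage-gated channels had 5 of 59 near gained regions (8.47%): CACNA1A, KCNB2, KCNK9, KCNQ5 and SCN8A. Near lost regions were 11 of 59 (18.6%), and the median length of these channel genes was 160.5 kb. The potassium channel gene KCNB2 held the strongest, an intronic region 31.7 kb from the nearest DMSO H3K27ac peak, with H3K27ac of 3.43, 3.56 and 3.30. There H3K4me2 was 4.41 in DMSO library 1 alone and 5.73, 4.68 and 4.45 in Doxycycline. Axon guidance genes had 5 of 64 (7.81%): NRP1, PLXNA4, SEMA5B, SEMA6A and UNC5A. Of the same list 8 (12.5%) were near lost regions. The region nearest to the netrin receptor gene UNC5A had H3K4me2 of 5.24 in DMSO library 1 alone and of 12.9, 3.70 and 6.42 in Doxycycline. Near the semaphorin gene SEMA6A, H3K4me1 was 2.45, 2.68 and 2.48 in DMSO and 3.56, 2.75 and 3.19 in Doxycycline, without overlap.

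Of 16 adrenergic core factors, 2 (12.5%) were nearest to a gained region, LMO1, a LIM-only cofactor, and KLF7, and 3 (18.8%) to a lost one. The LMO1 region was a weak peak at percentile 30.3, with H3K4me1 of 3.00, 2.20 and 2.19 in DMSO and 3.96, 3.02 and 2.91 in Doxycycline, and the KLF7 region lay 85 bp from a DMSO H3K27ac peak. Of 33 mesenchymal genes, 1 was nearest to a gained region, the receptor gene EGFR, and 8 (24.2%) to a lost one. The EGFR region held an AP-1 motif and carried H3K4me1 and H3K4me2 in all 6 libraries, with H3K4me1 of 2.99, 2.49 and 2.14 in DMSO and 4.14, 3.61 and 2.74 in Doxycycline.

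The remaining lists had shares between 0 and 4.55%, against 2.12% of all genes, so that 0 to 2 genes each were near gained regions. They were SCG2 of 22 catecholamine genes, TCF4 of 30 genes of the RUNX and corepressor complexes, TCF7L2 and BMPR1B of 75 WNT and TGF-beta genes, ISG15 of 38 antigen presentation and interferon genes and TOP2A of 45 cell cycle genes. The region nearest to the BMPR1B start site lay over a coding exon of UNC5C, another netrin receptor gene, and had no peak of the other 4 marks. For TCF7L2, a WNT effector, the region lay 2.53 kb from a start site, with H3K4me1 of 2.44 in DMSO library 1 alone and of 3.97, 2.91 and 2.56 in Doxycycline. Counts were 0 of 20 neurotrophin and RET receptor genes, 0 of 20 MYC network genes, 0 of 32 Polycomb genes and 0 of 11 genes that the study used as controls or markers. At the share of all genes, fewer than 1 gene would be counted in each of these lists.

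**Figure D5:**
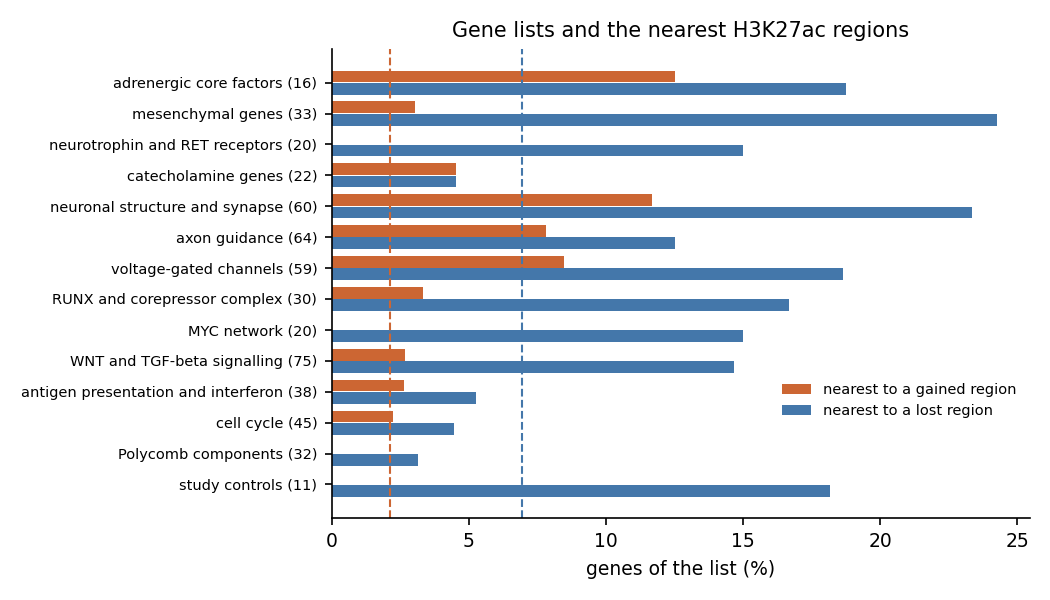
Share of the genes of each list (%, horizontal axis, number of genes in brackets) whose start site within 100 kb is nearest to a gained or a lost H3K27ac region. Dashed lines give the shares over all protein-coding genes, 2.12% and 6.95%. Neuronal structure and synapse genes are at 11.7% and 23.3%.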

How the data were processed

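The 30 deposited peak lists (5 marks, 2 treatments, 3 libraries each) were used; 4 input samples entered only through the calls. Groups and replicate numbers came from the labels. According to the methods of the study and the labels, the authors aligned reads with Bowtie2 to hg38 and kept reads of mapping quality 30 and above. MACS2 2.1.1.20160309, per the file headers, called each library on its own against an input, as broad peaks at q 0.05 (linked at 0.1) for H3K4me1, H3K27ac and H3K27me3 and as narrow peaks at p 1e-05 for H3K4me2 and H3K4me3. The methods of the study give q 0.05 for every mark, so the sources differ on the threshold behind the H3K4me2 and H3K4me3 calls, and the headers were followed. The deposited pileup is fragment coverage (signal), and significance was deposited as −log10 of the caller's p-value and of its q-value. Fold enrichment, as deposited, is the ratio of ChIP to local input signal. Read numbers per region were not analysed here, so weak peaks in DMSO below the threshold count as absent, and the depth of calling bears on every presence call.

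Intervals were merged and overlapped (1 bp) with python 3.11.15, numpy 2.4.6, pandas 2.3.3 and pysam 0.24.0, and tests used scipy 1.17.1. The overlap functions gave the same result as bedtools 2.31.1 and, tested on simulated data, recovered 100% of 200 gained regions planted among 100582. Where several peaks of a list overlapped a region, the one with the highest −log10 q-value gave its values. Genes are from GENCODE 44 (hg38), and promoters are 1 kb either side of protein-coding start sites. Genome sequence was hg38. Differences over all regions were tested by exact two-sided permutation with Benjamini-Hochberg adjustment over 4 marks. Same-numbered libraries deviated together in every pair (correlation over 0.1) for H3K4me1, H3K4me2 and H3K4me3, but not for H3K27ac or H3K27me3, so paired differences are given as well. Some different-numbered libraries also deviated together, with a correlation of up to 0.333 for H3K4me2 and 0.277 for H3K4me3. The replicate numbers therefore do not establish a pairing.

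Named regions were the 8 ranking highest by −log10 q within the Doxycycline lists (mean percentile), up to 8 that gained another active mark, up to 3 with H3K27me3 in all 6 libraries, up to 8 promoters, up to 8 genes with 3 or more gained regions, up to 3 members per gene list, the 3 weakest members and 3 regions just outside the rule. The members, gene lists, motifs and this rule were chosen with earlier results of these data known. Alternatives were stricter H3K27ac peaks, lists of equal length, a 500 bp merging gap, exclusion of regions near DMSO peaks, 50% coverage, other promoter definitions, other sequences, exclusion of 5 Mb around MYCN, leaving out libraries and the replicate block. Pileup in place of fold enrichment, H3K4me3 enrichment and the settings for motifs were added after seeing the data.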

Additional observations from a re-analysis of the deposited data

How the results depend on the processing

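The number of gained regions depended on the peaks admitted. Settings that drop weak peaks drop them from the DMSO lists too, so regions outside the main set enter. It was 341 with H3K27ac peaks of −log10 q 3 or more and 1145 with lists of equal length, and it lay between 727 and 1873 when a library or a replicate number was left out, where fewer lists have to meet the rule. Leaving out 1 library moved it by over 1.5 times for DMSO replicate 1 (1367) and for Doxycycline replicates 1, 2 and 3 (904, 1455 and 1623). With −log10 q of 3 or more, the H3K4me1 difference at gained regions was 5.08 points, and 6 regions also gained H3K4me1. The promoter share was 14.4% at that threshold, 15.6% within 2.5 kb and 15.4% with start sites of all annotated genes. The H3K27me3 difference at gained regions reversed to -0.587 points at that threshold and to -0.0291 with lists of equal length, and ranged from -0.111 to 0.803 without single libraries. Without single libraries the H3K4me1 difference ranged from 9.52 to 18.0 points and that of H3K4me2 from 8.06 to 20.7.

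Over all merged regions, the log2 difference of H3K4me2 was 0.065 with peaks covering 50% of the region, and without single libraries it ranged from -0.21 to 0.18, that of H3K4me3 from -0.085 to 0.026 and that of H3K27me3 from -0.23 to 0.24. With the replicate block the difference of gained regions stayed at 13.1 points for H3K4me1 and 14.8 for H3K4me2, since it is the mean of the paired differences, and exact sign flips gave a p of 0.25 for H3K4me1 and for H3K4me3 over all regions, the smallest 3 pairs can give. The block changed no call.

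In settings added after seeing the data, the share of H3K4me1-marked members with all Doxycycline values above all DMSO values was 22.6% with the stricter H3K27ac peaks and 44.6 to 68.3% without single replicate numbers, where 2 against 2 values separate more easily. The AP-1 share was 23.8% and 36.4% in windows of 500 and 1000 bp (all merged regions 15.2% and 27.3%) and 13.6 to 18.7% without single H3K27ac libraries. The GATA share was 26.2% and 44.4% in those windows (all merged regions 27.1% and 45.0%) and 14.8 to 21.0% without single libraries. In all, 114 of the alternative values were labelled unchanged, 26 moved and 10 reversed. The differences over all merged regions were labelled by sign alone, with no limit on size. For H3K27me3 that log2 difference was 0.048 in the main setting. It was 0.370 with peaks covering 50% of the region and 0.583 with H3K27me3 peaks of −log10 q 3 or more, both labelled unchanged.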

Other observations

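The share of merged H3K27ac regions that were gained differed between chromosomes. It was highest on chromosome 18 (1.18%), chromosome 8 (0.911%) and chromosome 11 (0.901%) and lowest on chromosome 21 (0.280%) and chromosome 16 (0.287%). These values carry no test, and copy number in this line was not analysed here. Bivalent members outside the named regions included the promoters of CXCL12, a chemokine, PIEZO1, a mechanosensitive channel, and TP73, a p53 family factor, which were named after their values were seen. H3K27ac −log10 q-values there were 4.35, 3.4 and 6.84 for CXCL12, 6.46, 4.43 and 1.71 for PIEZO1 and 4.95, 1.2 and 2.19 for TP73 in Doxycycline libraries 1, 2 and 3.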
